A study of Mus musculus with 12 samples.

Results

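The 34 genes described here are characteristic of mast cells, basophils and eosinophils, and were taken from a list of granule proteases, IgE receptor chains, mediator enzymes, granule proteins, cytokines and surface or signalling molecules. They were matched by symbol to the deposited array table, and each gene was represented by its single-symbol probe set with the highest mean over the 12 arrays. A probe set was found for 33 of the 34; the tryptase Prss34 had none and has no value. Of the 33, 24 had a mean over 5.10 on the log2 scale, the 40th percentile of all probe sets, and were tested among 12912 genes. Cma1, Fcer1a, Il4 and Il13 of the 24 passed that filter only through INV16 replicate 4, the array on which they were high. The 9 measured genes below it were Mcpt1, Mcpt2, Mcpt4, Tpsab1, Tph1, Prg2, Epx, Enpp3 and Rgs13.

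Mast cells and basophils carry the high-affinity IgE receptor, and its cross-linking releases histamine, proteases and heparin-like proteoglycans from granules and starts the synthesis of leukotrienes, prostaglandins and cytokines. Both arise from bone-marrow progenitors under the control of GATA2 and, for mast cells, of MITF and of signals through the receptor KIT, while eosinophils store cationic proteins such as major basic protein and eosinophil peroxidase. Cpa3 is known to be transcribed already in early progenitors, before mature mast cells appear.

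The cells were mouse bone-marrow progenitors sorted as negative for lineage markers and Flt3 and positive for c-Kit and Sca-1, from normal animals. They were cultured with SCF, the ligand of KIT, and with IL-6, and RNA of the GFP-positive cells was taken about a day after transduction. INV16 (4 arrays) received a retrovirus encoding the CBFB-MYH11 fusion of inv(16) leukaemia. ACD mutant (3 arrays) received the fusion deleted of its assembly competent domain, which the design text calls non-leukemogenic. MIB control, with 5 arrays numbered 3 to 7, received the empty retroviral vector. By this design the groups share sorting, culture and infection and differ in the insert the virus carried. Per the design text the replicates came from separate sorts and transductions. The arrays of the groups also differed in spike-in controls, as given below. The expression of the insert was not measured here. The mouse probe sets for its 2 source genes need not detect it: Cbfb lay at 12.22 to 12.50 on INV16 replicates 1 to 3, 11.05 on replicate 4, 12.12 on each ACD mutant array and 12.18 to 12.71 in MIB control, and Myh11 at 4.21 to 4.68 on all 12 arrays. In such bulk RNA, fewer cells of a type and less RNA per cell cannot be told apart.

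INV16 replicate 4 was unlike the remaining 11 arrays and is described separately. It correlated with them at 0.895 to 0.917 across probe sets, against 0.985 to 0.996 among the others. The progenitor gene Hoxa9 measured 4.39 on it and 11.998 to 12.57 on the other 11, the marker Cd34 7.39 against 11.15 to 12.35, and Kit 10.99 against 10.26 to 11.43. Xist, the RNA of the inactive X chromosome, measured 12.68 on it and 6.02 to 6.48 on the others. All group comparisons below use the other 11 arrays, on which Kit, a sorted marker, Cd34 and Hoxa9 were all bright. The difference of the spike-in controls BioC and BioB split the arrays as well: it was 1.07 to 1.21 in INV16 replicates 1 to 3 and MIB control replicates 3 to 5, and -0.11 to 0.07 in INV16 replicate 4, all ACD mutant arrays and MIB control replicates 6 and 7. No side of this split held both INV16 replicates 1 to 3 and ACD mutant arrays, so the insert and the side cannot be told apart between them. BioB itself was 7.13 to 7.49 in the ACD mutant, 7.71 on INV16 replicate 4 and 8.38 to 8.885 on the rest. MIB control replicates 6 and 7, on the side of the ACD mutant, were at 8.57 and 8.76. Fits by side therefore leave the ACD mutant and MIB control apart in BioB, and the part of this difference was not tested. Gapdh, whose 3′ minus 5′ difference is a sign of RNA quality, gave 3.64 on INV16 replicate 4 and 3.17 on ACD mutant replicate 1, and the rest gave 1.10 to 1.98.

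Promoters of 6 genes are shown because the results below turn on them. Among the tested members, Hdc, Cd200r3, Cpa3 and Ms4a2 had the largest log2 fold changes in the ACD mutant against MIB control, all upward. On INV16 replicate 4, Fcer1a and Mcpt8 lay farthest from the other INV16 arrays among the tested members, upward and downward. The sequences are those of RefSeq on build GRCm38.p6, 250 bases before to 50 after the annotated start, written 5′ to 3′ on the gene's strand. Capitals mark matches on either strand to AGATAA or TGATAA, letters bound by GATA factors, and to TGTGGT or TGCGGT, letters bound by RUNX factors, the partners of CBFB.
Hdc, minus strand, chr2:126618629-126618928: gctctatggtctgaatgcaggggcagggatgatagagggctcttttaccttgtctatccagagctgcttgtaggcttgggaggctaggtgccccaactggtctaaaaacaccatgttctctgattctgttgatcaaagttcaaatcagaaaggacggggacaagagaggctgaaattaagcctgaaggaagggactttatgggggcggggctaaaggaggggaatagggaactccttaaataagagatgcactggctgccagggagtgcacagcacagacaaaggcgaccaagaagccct
Cd200r3, plus strand, chr16:44943428-44943727: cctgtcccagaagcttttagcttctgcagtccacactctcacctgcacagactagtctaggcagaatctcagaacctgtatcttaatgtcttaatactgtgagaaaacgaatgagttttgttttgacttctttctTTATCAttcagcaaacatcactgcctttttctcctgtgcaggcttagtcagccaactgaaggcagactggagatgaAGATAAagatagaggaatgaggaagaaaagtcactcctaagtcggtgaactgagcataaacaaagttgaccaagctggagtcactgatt
Cpa3, minus strand, chr3:20242132-20242431: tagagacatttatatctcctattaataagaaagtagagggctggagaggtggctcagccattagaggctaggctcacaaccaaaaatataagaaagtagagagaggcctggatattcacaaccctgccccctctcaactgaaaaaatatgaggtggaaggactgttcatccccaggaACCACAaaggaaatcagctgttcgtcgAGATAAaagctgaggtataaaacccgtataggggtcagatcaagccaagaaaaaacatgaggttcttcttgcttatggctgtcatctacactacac
Ms4a2, minus strand, chr19:11623670-11623969: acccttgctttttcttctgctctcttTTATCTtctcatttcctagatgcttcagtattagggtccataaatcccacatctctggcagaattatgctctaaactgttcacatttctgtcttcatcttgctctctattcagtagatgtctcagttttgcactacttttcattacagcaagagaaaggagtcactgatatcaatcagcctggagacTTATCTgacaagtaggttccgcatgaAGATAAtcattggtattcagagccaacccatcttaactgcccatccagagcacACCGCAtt
Fcer1a, minus strand, chr1:173227180-173227479: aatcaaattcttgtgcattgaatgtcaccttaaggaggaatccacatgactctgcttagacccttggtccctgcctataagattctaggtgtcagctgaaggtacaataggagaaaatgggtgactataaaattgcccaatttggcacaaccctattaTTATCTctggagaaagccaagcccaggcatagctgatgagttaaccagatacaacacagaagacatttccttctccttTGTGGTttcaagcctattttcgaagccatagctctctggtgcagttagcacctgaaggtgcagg
Mcpt8, minus strand, chr14:56085148-56085447: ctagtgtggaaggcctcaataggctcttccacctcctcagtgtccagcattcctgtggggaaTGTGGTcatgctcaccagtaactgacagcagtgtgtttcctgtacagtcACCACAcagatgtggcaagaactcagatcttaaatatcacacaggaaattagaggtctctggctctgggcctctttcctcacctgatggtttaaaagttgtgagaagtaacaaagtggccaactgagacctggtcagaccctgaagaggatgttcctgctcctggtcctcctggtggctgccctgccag

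The Hdc window held no match to either motif, the Cd200r3 window 2 GATA matches and the Cpa3 window 1 of each kind. The Ms4a2 window held 3 GATA matches and 1 RUNX match, the Fcer1a window 1 of each, and the Mcpt8 window 2 RUNX matches. RefSeq promoters were found for 27 of the 34 genes, 33 promoters in all. A GATA match lay in 14 of the 33 (42.4%), against 18.6% of all 32851 promoters of this length. A RUNX match lay in 18 of them (54.5%), against 22.4% of all, and an E-box of the kind MITF binds (CACGTG or CATGTG) in 6 (18.2%), against 20.4%. No 2 motifs overlapped in the members' promoters. These are counts of letters and not of bound sites.

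Against MIB control, the ACD mutant cells had more RNA for the histamine enzyme and for an activating surface receptor of mast cells and basophils. Hdc, the histidine decarboxylase that makes histamine, measured 10.62, 10.40 and 10.32 in the ACD mutant, against 8.32, 9.14, 8.56, 9.06 and 9.34 in MIB control (replicates 3 to 7). All ACD mutant arrays lay above all MIB control arrays. The means were 10.45 ± 0.16 (SD, n = 3) in the ACD mutant and 8.89 ± 0.43 (SD, n = 5) in MIB control, a 2.95-fold difference (log2 fold change 1.56, SE 0.23, 95% interval 1.06 to 2.06, limma adjusted p = 0.0150). The other Hdc probe set differed by 1.02 in the same direction. Cd200r3, a receptor that pairs with activating adaptors, measured 6.08, 5.68 and 6.02 in the ACD mutant, against 4.17, 4.65, 4.62, 4.59 and 5.26 in MIB control. The groups again did not overlap, and the difference was 2.41-fold (5.92 ± 0.21, n = 3, against 4.66 ± 0.39, n = 5; log2 fold change 1.27, SE 0.23, limma adjusted p = 0.0245). The other Cd200r3 probe set, dim in these groups, differed by 0.01.

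Hdc and Cd200r3 were the 2 of 24 tested members called higher in the ACD mutant, against 0.984% of all 12912 genes, and 0 were called lower, against 0.713%; 9 of the 24 had an unadjusted p under 0.05. The median log2 fold change of the 24 was 0.06, with 14 above 0, and that of all genes 0.01. Hdc lost its call without ACD mutant replicate 1 (1.48, adjusted p = 0.0924) or replicate 2 (1.59, adjusted p = 0.0821). Cd200r3 lost its call without ACD mutant replicate 1 (1.19, adjusted p = 0.146), ACD mutant replicate 2 (1.39, adjusted p = 0.0952) or MIB control replicate 5 (1.26, adjusted p = 0.0643). The spike-in side of the ACD mutant arrays also held MIB control replicates 6 and 7. Within that side Hdc was 1.25 higher (limma adjusted p = 0.0336) and Cd200r3 1.00 higher (adjusted p = 0.0707). With the side as a block the limma adjusted p was 0.0694 for Hdc and 0.101 for Cd200r3. BioB was lower in the ACD mutant than on MIB control replicates 6 and 7, so neither fit matches the groups in it.

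Cpa3 and Ms4a2 were high in the ACD mutant and on 1 MIB control array. Cpa3, a carboxypeptidase of mast cell granules, measured 11.38, 11.09 and 11.05 in the ACD mutant, against 9.60, 10.30, 9.75, 9.59 and 10.999 in MIB control. The ACD mutant arrays lay just above MIB control replicate 7 and clearly above the rest. Its log2 fold change was 1.12 (SE 0.28, limma adjusted p = 0.0620) and did not pass the test. Ms4a2, the signal-amplifying β chain of the IgE receptor, measured 10.61, 10.44 and 10.11 in the ACD mutant, against 7.76, 9.09, 8.73, 8.34 and 10.34 in MIB control. Here MIB control replicate 7 lay among the ACD mutant arrays, and the log2 fold change was 1.54 (SE 0.41, limma adjusted p = 0.0654). Another Ms4a2 probe set differed by 1.21 in the same direction.

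MIB control replicate 7 was the highest of the 5 MIB control arrays for 15 of the 24 tested members, and for 23.2% of all 12912 genes. Without it the ACD mutant exceeded MIB control by 1.36 in Cpa3 (limma adjusted p = 0.00745), 1.91 in Ms4a2 (adjusted p = 0.00399) and 0.61 in the leukotriene enzyme Alox5 (adjusted p = 0.0233). With Hdc and Cd200r3, that made 5 members called higher, against 2.86% of all genes in that fit. Replicate 7 was the highest MIB control array for all 5 of these genes and was singled out by such values. Leaving it out must raise their differences, so that fit is no separate support for them. Without any other single MIB control array, 1 or 2 members were called higher. The mean level of 10 megakaryocyte genes was also high on these arrays. It was 7.62 to 7.76 on INV16 replicates 1 to 3, 8.66 to 8.98 in the ACD mutant and 7.55 to 9.31 in MIB control, with replicate 7 at the top. In the ACD mutant against MIB control all 10 of these genes had a log2 fold change above 0, with a median of 0.73, and 0 were called. The part of such cells in the results was not tested.

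**Figure D1:**
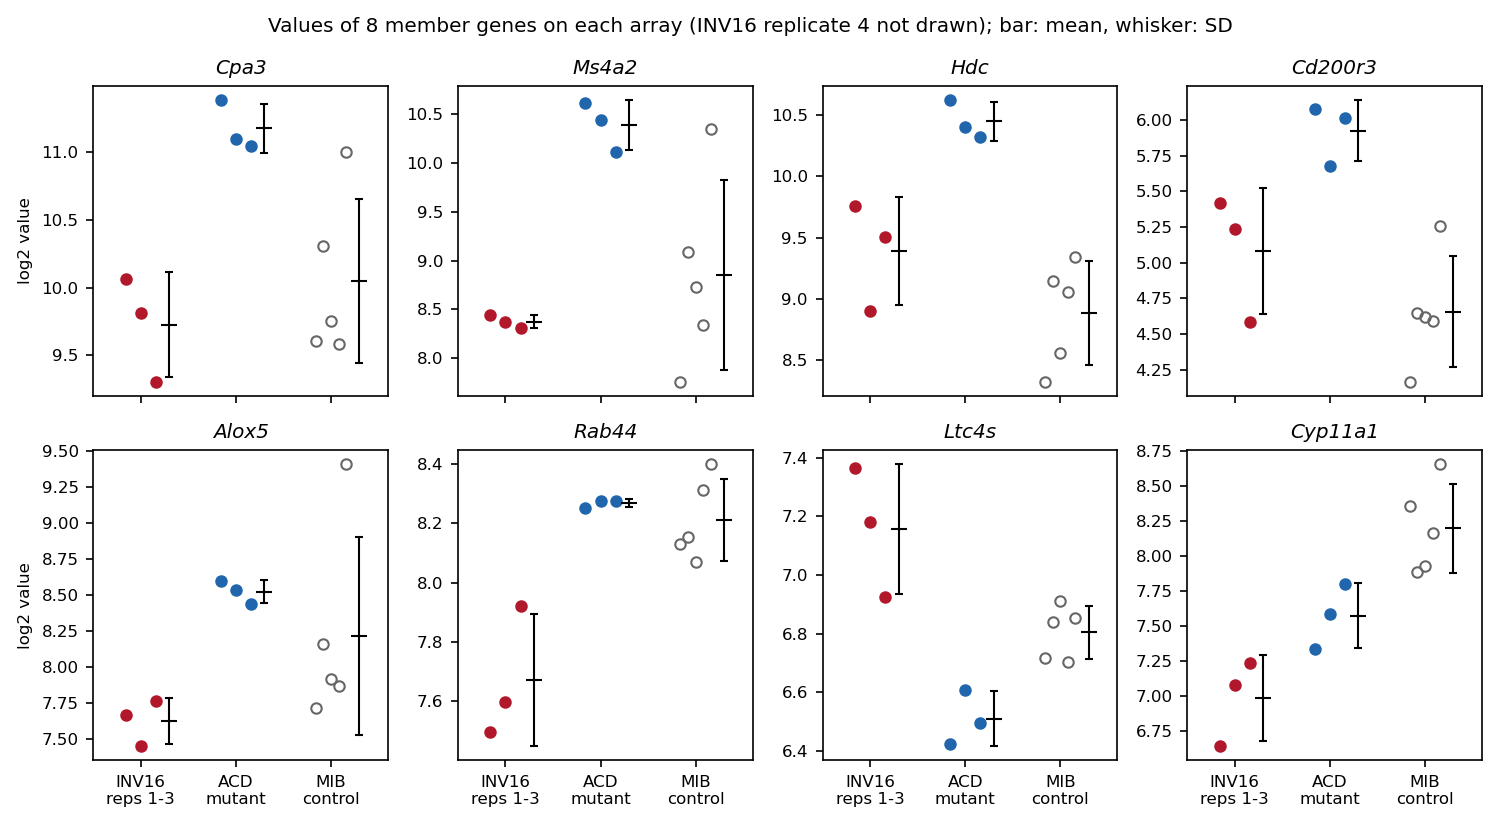
Deposited log2 values (vertical axis) of 8 member genes on each of the 11 arrays compared, with INV16 replicates 1 to 3 in red, ACD mutant in blue and MIB control as open circles; the bar is the group mean and the whisker the SD. Hdc and Cd200r3 are higher on all ACD mutant arrays than on any MIB control array, while 1 MIB control array, replicate 7, reaches or nears the ACD mutant level of Cpa3 and Ms4a2 and lies above it for Alox5.

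Members that lay lower in ACD mutant cells than in vector controls did not pass the test. Without overlap between the groups were Cyp11a1 (-0.62, adjusted p = 0.0947), Fcer1a (-0.71, adjusted p = 0.111) and Ltc4s (-0.29, limma adjusted p = 0.162). Likewise without overlap but higher were Hdc, Cd200r3 and Cpa3. These 3 lower and 3 higher members of 24 compare with 5.84% and 6.92% of all genes. Fcer1a, the IgE-binding α chain of the receptor, was dim throughout, at 4.47, 4.27 and 4.34 in the ACD mutant, against 5.04, 4.79, 4.82, 4.97 and 5.74 in MIB control. All ACD mutant arrays lay below all MIB control arrays, at a level where differences are compressed. Fcer1g, the receptor's γ chain shared with other Fc receptors, measured 8.63 to 9.18 in the ACD mutant and 8.03 to 9.002 in MIB control.

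Against MIB control, INV16 replicates 1 to 3 had less RNA for a steroid enzyme and for a granule-linked GTPase, and 0 of 24 members were called higher. Cyp11a1, which cleaves cholesterol in the first step of steroid synthesis, measured 6.64, 7.07 and 7.23 in INV16, against 8.35, 7.88, 7.92, 8.16 and 8.65 in MIB control. The groups did not overlap, and the difference was 2.32-fold (6.98 ± 0.31, n = 3, against 8.19 ± 0.32, n = 5; log2 fold change -1.21, SE 0.19, limma adjusted p = 0.00760). The other Cyp11a1 probe sets, at 4.55 to 6.06 in the group means, differed by 0.08 and -0.03. Rab44, a large Rab GTPase of mast cell secretion, measured 7.49, 7.60 and 7.92 in INV16, against 8.13, 8.15, 8.07, 8.31 and 8.40 in MIB control. It was 1.46-fold lower in INV16, again without overlap (7.67 ± 0.22, n = 3, against 8.21 ± 0.14, n = 5; log2 fold change -0.54, SE 0.12, limma adjusted p = 0.0350).

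The 2 members called lower compare with 1.07% of all genes, and the 0 called higher with 0.627%; 7 of the 24 had an unadjusted p under 0.05. The median log2 fold change of the members was -0.14, with 9 above 0, and that of all genes -0.03. Ndst2, the heparin sulfotransferase of mast cell granules, lay below MIB control without overlap as well (-0.38, limma adjusted p = 0.279), and Ltc4s above it (0.35, adjusted p = 0.143). In all, 3 members were lower and 1 higher without overlap, against 5.99% and 3.28% of all genes. Cyp11a1 lost its call without INV16 replicate 1 (-1.04, adjusted p = 0.0658), with the mean of all its probe sets (-0.39, adjusted p = 0.0908) and within the spike-in side that held both groups (-1.07, limma adjusted p = 0.0653). Rab44 was -0.45 within that side (adjusted p = 0.234) and with the side as a block (limma adjusted p = 0.0884). Rab44 also lost its call after quantile normalisation (-0.49, adjusted p = 0.0765), in a fit of only the 2 groups (-0.54, limma adjusted p = 0.0929), without MIB control replicate 5 (-0.58, adjusted p = 0.0515), replicate 6 (-0.52, adjusted p = 0.0738) or replicate 7 (-0.49, adjusted p = 0.0630), without INV16 replicate 1 (-0.45, adjusted p = 0.212) or 2 (-0.50, adjusted p = 0.134), and without ACD mutant replicate 1 (adjusted p = 0.0591), 2 (0.0544) or 3 (0.0570).

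INV16 and the ACD mutant, which differ in the assembly competent domain and also in the spike-in side of their arrays, differed in 4 of 24 members. Cpa3 measured 10.06, 9.81 and 9.31 in INV16, against 11.38, 11.09 and 11.05 in the ACD mutant. It was 2.73-fold lower in INV16 (9.73 ± 0.39 against 11.17 ± 0.18, n = 3 each; log2 fold change -1.45, SE 0.32, limma adjusted p = 0.0379). Ms4a2 measured 8.44, 8.37 and 8.31 in INV16, against 10.61, 10.44 and 10.11 in the ACD mutant, and was 4.04-fold lower in INV16 (8.37 ± 0.07 against 10.39 ± 0.25, n = 3 each; log2 fold change -2.01, SE 0.45, limma adjusted p = 0.0418). For both genes the groups lay far apart, and the second Ms4a2 probe set differed by -1.41. Rab44 was also lower in INV16, by 0.60 on the log2 scale (7.67 ± 0.22 against 8.27 ± 0.01, n = 3 each; SE 0.13, limma adjusted p = 0.0356).

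Ltc4s, the synthase that makes leukotriene C4, was the 1 member called higher in INV16 than in the ACD mutant. It measured 7.36, 7.18 and 6.92 in INV16, against 6.42, 6.61 and 6.50 in the ACD mutant. The difference was 1.56-fold (7.16 ± 0.22 against 6.51 ± 0.09, n = 3 each; log2 fold change 0.65, SE 0.12, limma adjusted p = 0.0222), without overlap. Other members of lipid mediator synthesis did not pass the test. Alox5, which starts leukotriene synthesis, measured 7.67, 7.45 and 7.76 in INV16, against 8.60, 8.54 and 8.44 in the ACD mutant (-0.90, limma adjusted p = 0.160). Its activating protein Alox5ap, bright on every array, differed by -0.13 (adjusted p = 0.535), and the prostaglandin D synthase Hpgds by 0.14 (limma adjusted p = 0.771).

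The 3 members called lower in INV16 than in the ACD mutant compare with 1.76% of all genes and the 1 called higher with 0.31%; 12 of 24 had an unadjusted p under 0.05. Without overlap, 10 members lay lower in INV16 and 2 higher, against 19.2% and 9.45% of all genes. Beside Cpa3, Ms4a2 and Rab44, the lower 10 were Hdc (-1.06, limma adjusted p = 0.0530), Cd200r3 (-0.84, adjusted p = 0.0936), Alox5, Slc18a2 (-0.89, adjusted p = 0.158), Ndst2 (-0.59, adjusted p = 0.104), Cyp11a1 (-0.59, adjusted p = 0.150) and Alox5ap. Slc18a2 loads histamine and serotonin into granules. The median log2 fold change over the 24 members was -0.10, with 7 above 0, and over all genes -0.02. As all 3 comparisons rest on 11 shared arrays and each group enters 2 of them, they are not independent of each other.

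These 4 calls rest on few arrays. Each was lost without any 1 of the ACD mutant arrays and without INV16 replicate 1 or 2; the log2 fold changes of Cpa3 lay then between -1.61, without INV16 replicate 1, and -1.34, without ACD mutant replicate 1, with adjusted p between 0.0695 and 0.132. For Ms4a2 the adjusted p lay between 0.0689 (-2.15 without ACD mutant replicate 3) and 0.162, for Rab44 between 0.0817 and 0.135, and for Ltc4s between 0.0637 and 0.0918, all limma. Cpa3 and Ms4a2 lost the call also without INV16 replicate 3 (adjusted p = 0.0978 and 0.0867) or MIB control replicate 5 (0.0506 and 0.0596). Without MIB control replicate 7, an array singled out by its values, 7 members were called lower, against 3.26% of all genes. Hdc (limma adjusted p = 0.0308), Alox5 (0.00486), Ndst2 (0.0153) and Cd200r3 (0.0420) were added. Quantile normalisation ended the calls of Ms4a2 (-1.97, adjusted p = 0.0523) and Rab44 (-0.53, limma adjusted p = 0.0784). The mean of all probe sets of each gene ended the call of Ms4a2 (-1.71, limma adjusted p = 0.0584). Cpa3, which has only 1 probe set, stayed at -1.45 in that fit but also lost its call (limma adjusted p = 0.0534). With the spike-in side as a block, the log2 fold change was -1.04 for Cpa3 (limma adjusted p = 0.425) and -1.20 for Ms4a2 (0.495). For Rab44 it was -0.36 (adjusted p = 0.453) and for Ltc4s 0.60 (limma adjusted p = 0.302). No side held both groups, so this fit, here and below, compares them only through MIB control.

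**Figure D2:**
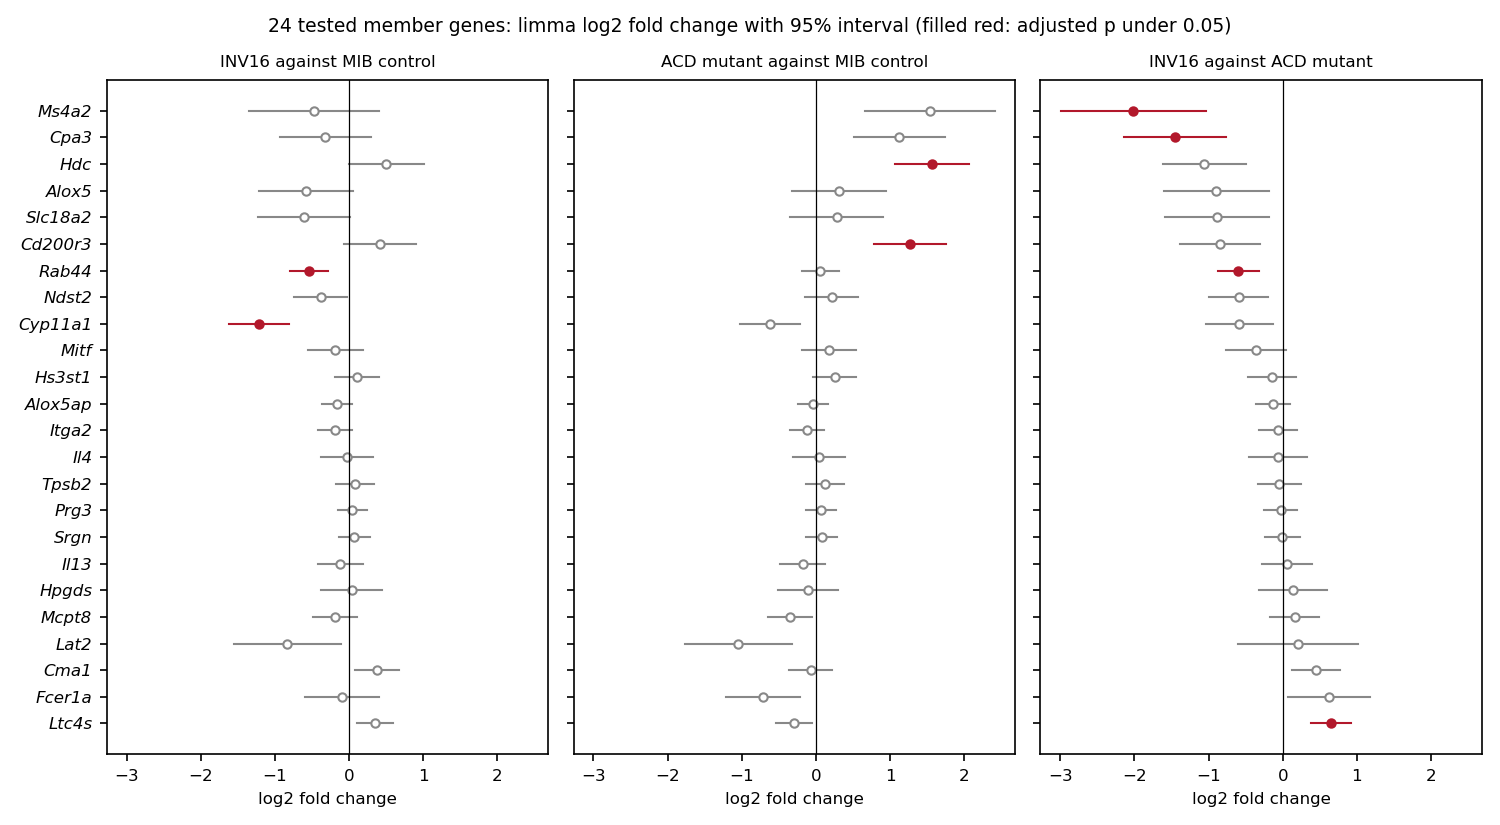
Log2 fold change (horizontal axis, limma estimate with 95% interval) of the 24 tested members in INV16 against MIB control, ACD mutant against MIB control and INV16 against ACD mutant, with calls at an adjusted p under 0.05 filled red. Ms4a2 and Cpa3 lie at -2.01 and -1.45 in INV16 against ACD mutant and at 1.54 and 1.12, uncalled, in ACD mutant against MIB control, and most other intervals cross or come near 0.

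The remaining tested members passed in no comparison. Serglycin (Srgn), the core protein to which granule heparin is attached, was bright on every array, at 13.52 to 13.59 in INV16, 13.50 to 13.63 in the ACD mutant and 13.33 to 13.60 in MIB control. Mcpt8, a protease of mouse basophils, lay at 9.66 to 9.89 in INV16, 9.39 to 9.81 in the ACD mutant and 9.70 to 10.24 in MIB control. Mitf, the mast cell transcription factor, lay at 6.36 to 7.01 in INV16, 6.80 to 7.23 in the ACD mutant and 6.47 to 7.11 in MIB control. Lat2, an adaptor downstream of the IgE receptor, varied widely within groups: 7.18, 8.16 and 6.65 in INV16, and 6.42, 7.27 and 7.67 in the ACD mutant, against 8.59, 7.65, 7.92, 8.19 and 8.47 in MIB control. Its log2 fold change against MIB control was -0.83 in INV16 (adjusted p = 0.244) and -1.04 in the ACD mutant (limma adjusted p = 0.110). The dimmer Lat2 probe sets did not show this: they differed from MIB control by 0.18 and 0.01 in INV16 and by 0.23 and 0.36 in the ACD mutant.

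Several proteases, eosinophil granule proteins and the cytokine Il4 had low values on all 11 arrays, while Srgn, Mcpt8, Hdc and Ms4a2 were brighter there. The tissue chymase Mcpt4 lay at 4.14 to 4.46, the mucosal chymases Mcpt1 and Mcpt2 at 3.73 to 4.16 and 4.34 to 4.88, and the chymase Cma1 at 4.50 to 5.27. The tryptases Tpsb2 and Tpsab1 lay at 5.57 to 6.08, around the array medians of 5.62 to 5.72, and at 4.43 to 4.71. Of the eosinophil granule proteins, major basic protein (Prg2) lay at 3.89 to 4.48, its relative Prg3 at 5.20 to 5.44 and the peroxidase Epx at 4.15 to 4.56. Tph1, which makes serotonin in mast cells, lay at 3.86 to 4.19, and the cytokine Il4 at 4.41 to 5.18. Values at this level have no measure of background, so it cannot be said whether these RNAs were present.

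Genes that act with the members were read from lists of regulators, receptors and IgE signalling. Of 17 transcription factors of mast cells and basophils, 1 was lower in INV16 than in MIB control: Cebpa, the granulocyte and basophil factor (-0.91, limma adjusted p = 0.0477), a call lost with the spike-in side as a block (-0.70, adjusted p = 0.116). In INV16 against the ACD mutant 2 were lower, the monocyte and basophil factor Irf8 (-1.50, adjusted p = 0.0259) and the GATA cofactor Zfpm1 (-1.38, limma adjusted p = 0.0433), and 0 were called in the ACD mutant against MIB control. With the spike-in side as a block, Irf8 differed by -1.17 (adjusted p = 0.354) and Zfpm1 by -0.31 (limma adjusted p = 0.681), and of all 12912 genes 0 were called in INV16 against the ACD mutant, with 1492 at an unadjusted p under 0.05. Gata2 itself measured 9.96, 9.67 and 9.85 in INV16 and 10.52, 10.62 and 10.46 in the ACD mutant, against 10.26, 10.47, 10.38, 10.29 and 11.26 in MIB control. INV16 lay below both other groups without overlap, but the gene passed in no comparison. The mean level of the 17 factors ran from 8.48 to 8.63 in INV16, 9.11 to 9.13 in the ACD mutant and 8.66 to 9.18 in MIB control, where replicate 7 was the highest.

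Among 10 tested growth factor and cytokine receptors, Il4ra, a chain of the IL-4 receptor, was lower in INV16 than in MIB control (-1.34, limma adjusted p = 0.00635) and than in the ACD mutant (-1.24, adjusted p = 0.0193). Csf2rb2, the mouse IL-3-specific β chain, was higher in ACD mutant cells (1.55, limma adjusted p = 0.0486), with 11.32, 11.19 and 11.21 in the ACD mutant, against 9.70, 9.06, 9.07, 9.61 and 11.04 in MIB control. MIB control replicate 7 again lay near the ACD mutant arrays, and with the spike-in block the difference was 0.92 (limma adjusted p = 0.213). Of 14 genes of IgE receptor signalling, the kinase Syk was lower in INV16 than in the ACD mutant (-1.05, limma adjusted p = 0.0167) and 0 were called in the other comparisons. Among 12 other mast cell genes, the cytokine Il6 was higher in INV16 than in the ACD mutant (1.23, adjusted p = 0.0199) and than in MIB control (1.53, limma adjusted p = 0.00353). Among 5 other eosinophil genes, the surface lectin Siglecf was lower in INV16 than in the ACD mutant (-1.04, limma adjusted p = 0.00567). None of these 4 calls of INV16 against the ACD mutant held with the spike-in side as a block: the difference was then -0.86 for Il4ra (adjusted p = 0.336), -0.48 for Syk (0.349), 1.42 for Il6 (0.251) and -0.84 for Siglecf (limma adjusted p = 0.251). Against MIB control, Il4ra and Il6 kept theirs with the block, at -1.18 (adjusted p = 0.0221) and 1.61 (limma adjusted p = 0.00671); within the side that held both groups the adjusted p was 0.0653 for Il4ra and 0.0237 for Il6.

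Many of the members were high on INV16 replicate 4. Of the 33 measured members, 17 were at least 1 log2 unit, or 2-fold, higher on it than the mean of INV16 replicates 1 to 3, and 1 was that much lower. Over the 24 tested members the counts were 14 and 1, against 8.69% and 20.8% of all 12912 genes, though 4 of the 24 entered through this array. It lay above all other 11 arrays for 18 of the 24 and below them for 1, against 34.3% and 38.8% of all genes. A single array allows no test, so these values describe that array and not INV16. Its median difference was 1.33 over the 33 measured members, 2.63 over the 24 tested ones and 0.00 over all 12912 genes tested. It was 1.94 over 10 erythroid genes, of which 6 were at least 1 log2 unit higher and 2 lower. Of 10 megakaryocyte genes 2 were higher and 2 lower by that much, of 15 other mast cell genes 5 and 3, and of 14 genes of IgE signalling 4 and 2. The part of cells of other types in the members' values was not tested.

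Tph1, Fcer1a and Cma1 showed the largest differences among the measured members. Tph1 measured 13.49 on INV16 replicate 4, against 4.14 ± 0.04 (SD, n = 3) on replicates 1 to 3, and no other array exceeded 4.19. Fcer1a measured 13.31, against 4.98 ± 0.51 (SD, n = 3), and Ms4a2 13.67, against 8.37 ± 0.07. The shared γ chain Fcer1g lay at 6.70, against 8.03 to 9.18 on the other 11 arrays. Hdc measured 13.95 and Slc18a2 10.68, against 9.39 ± 0.44 and 7.45 ± 0.43 (SD, n = 3 each) on replicates 1 to 3. Both IgE receptor chains and all 3 genes of amine synthesis and storage lay above all other arrays.

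The granule proteases did not move together on that array. Cma1, a chymase of connective-tissue mast cells, measured 12.70, against 5.20 ± 0.13 (SD, n = 3) on replicates 1 to 3, and Cpa3 14.27, against 9.73 ± 0.39. Mcpt4, Tpsb2, Tpsab1 and Mcpt2, at 4.95, 6.71, 5.96 and 5.86, exceeded the other arrays but stayed dim, and Mcpt1, of mucosal mast cells, was at 4.02 within their range. Mcpt8, the basophil protease, was 5.35, against 9.74 ± 0.14 (SD, n = 3) on replicates 1 to 3, the 1 member below all other arrays. Of the 8 proteases measured, 4 were thus at least 1 log2 unit higher and 1 lower.

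The other roles were mixed in the same way. Ndst2 measured 12.07 and Alox5 12.25 on INV16 replicate 4, against 7.42 ± 0.04 and 7.63 ± 0.16 (SD, n = 3 each) on replicates 1 to 3. Srgn measured 14.10, against 13.56 ± 0.04, while Hs3st1, Hpgds and Alox5ap lay within the range of the other arrays. Mitf measured 10.80, against 6.62 ± 0.34, by the brighter probe set, and the dim one 4.76. Il4 measured 10.09, against 4.66 ± 0.24, but Il13 only 5.90, against 5.03 ± 0.13. Cd200r3 measured 11.02, against 5.08 ± 0.44, and its dimmer probe set 6.83. Rab44 was at 10.93, against 7.67 ± 0.22, and Cyp11a1 at 9.01, against 6.98 ± 0.31. The basophil integrin Itga2 and the adaptor Lat2, at 5.55 and 6.51, lay within the range of the other arrays. The dimmer Lat2 probe sets, at 5.88 and 5.41, lay above all other arrays.

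Eosinophil genes were mixed on INV16 replicate 4. Prg3 measured 7.28, against 5.35 ± 0.05 (SD, n = 3) on replicates 1 to 3, while Prg2 and Epx, at 4.74 and 4.87, were slightly above the other 11 arrays and under the filter. The eotaxin receptor Ccr3 was at 3.84, within the range of 3.62 to 3.94 on the others, and the lectin Siglecf, known in mice from eosinophils and also other myeloid cells, at 11.58, against 6.86 to 8.25. The interleukin 5 receptor Il5ra was at 5.71, against 4.38 to 4.75.

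**Figure D3:**
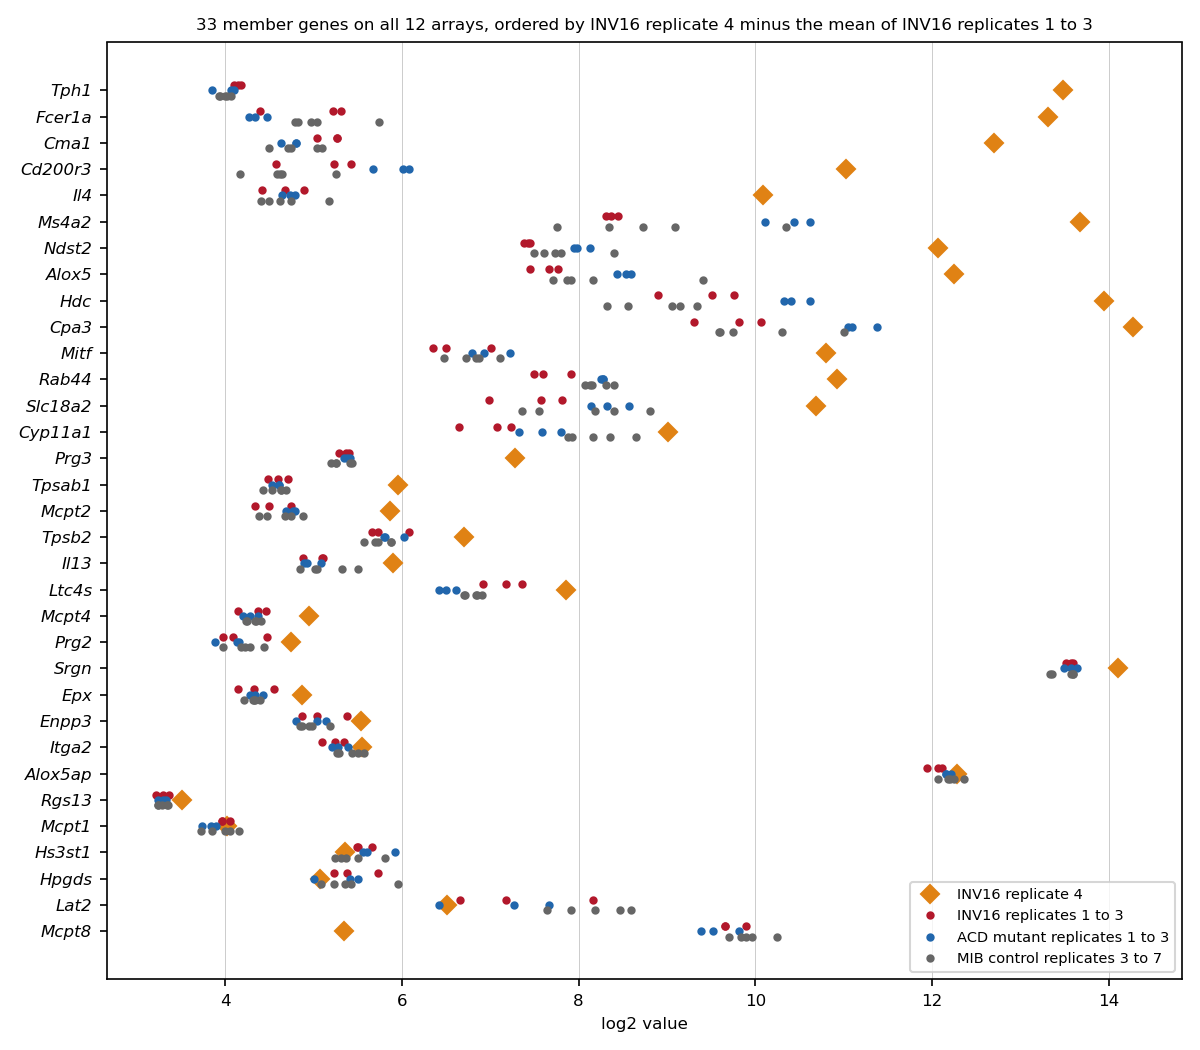
Log2 values (horizontal axis) of the 33 measured members on all 12 arrays, ordered from top to bottom by INV16 replicate 4 (orange diamonds) minus the mean of INV16 replicates 1 to 3 (red), with ACD mutant in blue and MIB control in grey. Tph1, Fcer1a and Cma1 lie at 12.70 or more on INV16 replicate 4 while the other 11 arrays stay at 5.74 or less, and Mcpt8, at the bottom, lies at 5.35 while the others reach 9.39 or more.

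Further genes of mast cells, basophils and their signalling went both ways on that array. The transcription factors Gata1 and Bhlhe40 measured 12.53 and 11.59, against 7.68 to 10.12 and 7.39 to 8.65 on the other 11 arrays, and Gata2 11.74, against 9.67 to 11.26, while Cebpa measured 5.87, against 8.47 to 9.84. Among receptors, Csf2rb2 measured 12.63, against 9.06 to 11.32, Csf2rb, the common β chain, 12.29, against 10.61 to 11.79, and Il18r1 7.87, against 4.22 to 4.98. Il18rap, the partner chain of Il18r1, was lower, at 6.12, against 8.996 to 9.78. Of the IgE signalling genes, the adaptors Lat, Grap2 and Gab2 measured 11.11, 7.35 and 11.98, against 7.75 to 9.44, 4.88 to 5.22 and 9.84 to 10.63, whereas the phospholipase Plcg2 measured 9.34, against 11.73 to 12.24. The amine oxidase Maob and the sulfotransferase Chst1 measured 11.27 and 10.91, against 3.45 to 4.05 and 4.76 to 5.22, Il6 10.20, against 4.79 to 6.90, and cathepsin G, Ctsg, 9.49, against 12.86 to 13.70.

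**Figure D4:**
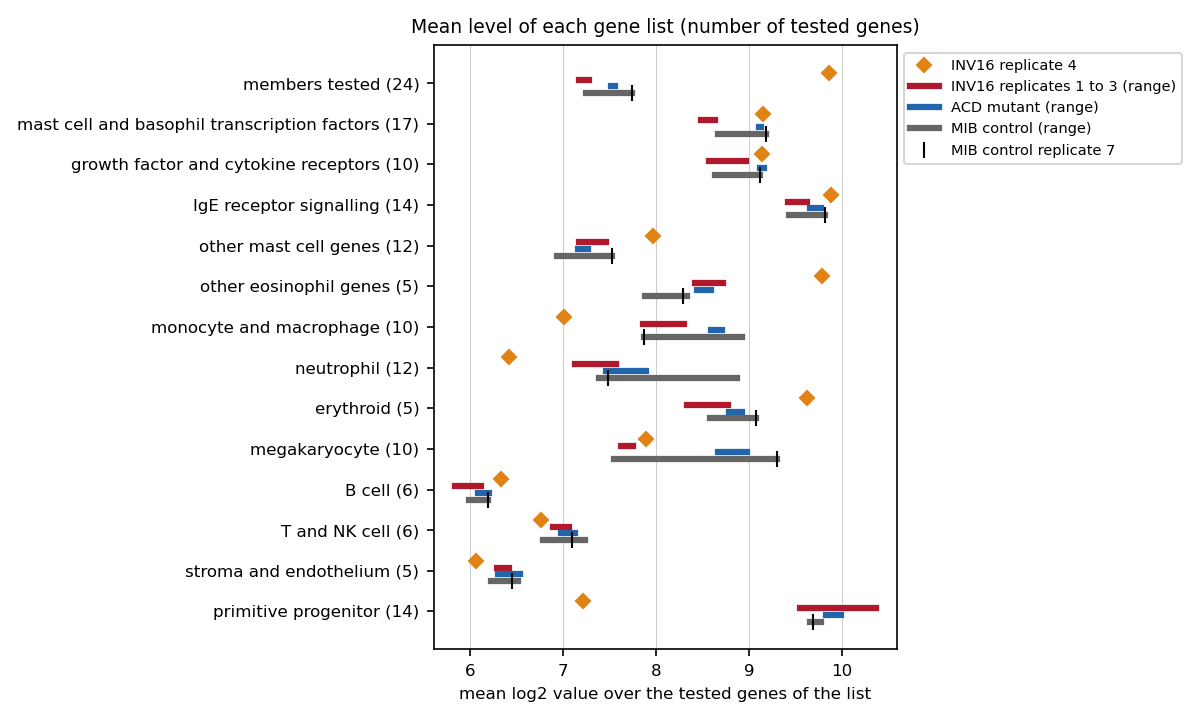
Mean log2 value (horizontal axis) over the tested genes of the members and of 13 other lists, with the number of genes in brackets; bars span INV16 replicates 1 to 3 (red), ACD mutant (blue) and MIB control (grey), diamonds mark INV16 replicate 4 and ticks MIB control replicate 7. The members averaged 9.86 on INV16 replicate 4 and 7.17 to 7.28 on the other INV16 arrays. They averaged 7.52 to 7.56 in the ACD mutant and 7.24 to 7.75 in MIB control, where replicate 7 was the highest. Of the members, Cma1, Fcer1a, Il4 and Il13 passed the filter only through INV16 replicate 4.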

How the data were processed

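Per the labels' protocols, RNA was amplified in repeated cDNA cycles, labelled with biotin and hybridised to Affymetrix mouse arrays, 1 per sample. The deposited table holds 45101 probe sets as log2 values summarised by the authors, on a scale inferred from their range of 2.82 to 14.97. Their method of background correction and normalisation was not given in the sources used here. Values were used as deposited, since the array medians lay within 0.17 of each other. Dim values are compressed, which understates fold changes, and precision is limited by the few arrays. Columns left unused numbered 0.

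Genes were named from the platform annotation: 34945 probe sets had 1 symbol, 932 several and 9224 none. Limma 3.58.1 in R 4.3.3 was fitted with a mean per group to 11 arrays (8 residual and 5.04 prior degrees of freedom), two-sided, with Benjamini-Hochberg adjustment over 12912 genes and calls at an adjusted p under 0.05. The code was tested on simulated data. The tests take each separate sort and transduction as a replicate. Alternatives covered the filter, probe sets, normalisation, arrays, groups, moderation, spike-in side and replicate numbers. The promoter windows are those of RefSeq.

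The members, lists and the separate treatment of INV16 replicate 4 were chosen with earlier results of these data known. The text names all members, called genes of the other lists and, for INV16 replicate 4, the 4 genes of each list farthest from INV16 replicates 1 to 3. Fcer1g, Ccr3, Kit, Gata2, Hoxa9, Xist and the control probe sets are given as facts of the arrays. The choice of promoters followed the values.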

Additional observations from a re-analysis of the deposited data

Results flagged for a closer look

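In 16 of the 33 measured members, INV16 replicate 4 lay far from the other 3 INV16 arrays, with a gap that made up most of the range of the 4. It was the highest in 15: Cpa3 (14.27 on the log2 scale), Cma1 (12.70), Tpsab1 (5.96), Fcer1a (13.31), Ms4a2 (13.67), Hdc (13.95), Tph1 (13.49), Alox5 (12.25), Srgn (14.10), Ndst2 (12.07), Prg3 (7.28), Il4 (10.09), Mitf (10.80), Cd200r3 (11.02) and Rab44 (10.93). It was the lowest in 1, Mcpt8 (5.35). In MIB control, replicate 7 lay far above the other 4 arrays for Fcer1a (5.74, the next at 5.04) and Alox5 (9.41, the next at 8.16). By the same measure INV16 replicate 4 stood far from the other 3 in 19.9% of all 12912 genes, against 14 of the 24 tested members. Of these 14, Cma1, Fcer1a and Il4 passed the filter only through this array. MIB control replicate 7 lay far above the others in 0.573% of all genes, against 2 of the 24. Chance alone marks about 1 in 20 such groups, but INV16 replicate 4 was set apart with its values known, so that rate is no yardstick for them.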

How the results depend on the processing

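The counts of called members were 2 in INV16 against MIB control, 2 in the ACD mutant against MIB control and 4 in INV16 against the ACD mutant. They were the same without an expression filter, with the filter and probe sets taken from the 11 arrays, and with a mean-variance trend. With all 12 arrays, INV16 replicate 4 included, all 3 were 0, and Rab44 changed sign to 0.27 in INV16 against MIB control and 0.22 against the ACD mutant, neither called; that array holds Rab44 at 10.93. Quantile normalisation gave 1, 2 and 2, with 103 higher and 115 lower calls over all genes in INV16 against MIB control, where the deposited values gave 81 and 138. The fit to only the groups compared gave 1, 2 and 10. The spike-in side as a block gave 1, 0 and 0; within 1 side the counts were 0 for INV16 and 1 for ACD mutant cells, each against MIB control. The mean of all probe sets gave 1, 2 and 2. The cause of these shifts was not tested. Leaving out single arrays gave 0 to 2, 0 to 5 and 0 to 8. Same-numbered INV16 and ACD mutant arrays deviated with correlations of -0.16, -0.18 and -0.31, and unlike-numbered ones with -0.23 to 0.42. With 3 arrays per group, on opposite spike-in sides, this cannot decide whether the numbers pair them. A replicate block gave 5 in INV16 against the ACD mutant, namely Cpa3, Ms4a2, Hdc, Slc18a2 and Alox5. Rab44 (limma adjusted p = 0.0628) and Ltc4s (0.0572) lost their calls with it. Against MIB control that block rests on MIB control replicate 3 alone, the only number shared with the other groups, so no counts are given. Cyp11a1 then differed by -1.13 in INV16 against MIB control. On INV16 replicate 4 the 17 members higher became 18 with the other 11 arrays as the base or after quantile normalisation, and the 1 lower became 2 with that base. Over all genes, the calls were 219, 219 and 267. They were 20, 0 and 5 with 12 arrays, 93, 72 and 841 with only the groups compared, and 151, 20 and 0 with the spike-in block. With the replicate block they were 380 in INV16 against the ACD mutant. Within 1 spike-in side they were 30 and 42. Where limma called 0 of all genes, 891 (12 arrays, ACD mutant against MIB control) and 1492 (spike-in block, INV16 against ACD mutant) had an unadjusted p under 0.05; where it called 0 members outside the fits that leave out an array, 1 to 9 did. Each uncalled member was read in each other setting, and 31 of 458, 17 of 458 and 27 of 396 such results changed sign. In INV16 against MIB control 0 became called. In the ACD mutant against MIB control, Cpa3, Ms4a2 and Alox5 became called without MIB control replicate 7. In INV16 against the ACD mutant 14 results became called, all in Hdc, Alox5, Ndst2, Cd200r3, Slc18a2 and Cma1.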

Other observations

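INV16 replicate 4 also differed in genes of other lineages. Erythroid genes averaged 9.62 over 5 tested genes, against 8.33 to 8.78 on INV16 replicates 1 to 3: the ammonium channel Rhag lay at 10.56, while the remaining arrays lay at 3.56 to 4.04, the transcription factor Klf1 at 10.72, against 6.21 to 7.31, and Ermap at 8.92, against 4.89 to 5.29. The transferrin receptor Tfrc was lower, at 8.95, against 11.71 to 12.79. Of 10 megakaryocyte genes, the integrin Itga2b and the glycoprotein Gp5 were higher, at 12.10 and 9.66, against 9.29 to 10.83 and 6.59 to 8.09, while the platelet factor Pf4 and Gp1bb measured 6.22 and 4.64, against 8.98 to 12.10 and 5.17 to 8.31. The B cell lectin Cd22, at 8.34, lay above 5.69 to 6.53, and the B cell receptor chain Cd79b, at 5.40, below 6.82 to 8.28.

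Several neutrophil and monocyte genes were lower on that array. The mean over 12 tested neutrophil genes was 6.42, against 7.13 to 7.57 on INV16 replicates 1 to 3. Over 10 tested monocyte and macrophage genes it was 7.01, against 7.86 to 8.31. Both means were below those of all other arrays. The counts that follow take in measured genes under the filter as well. Of 13 neutrophil genes, 0 were at least 1 log2 unit higher than the mean of INV16 replicates 1 to 3 and 4 lower. Of 14 monocyte and macrophage genes, 3 were higher and 5 lower by that much. The median difference over all measured genes was 0.14 in each list, so the lower means came from part of the genes. The azurophil proteins Prtn3 and Mpo measured 8.07 and 9.90, against 12.87 to 13.87 and 12.62 to 13.97 on the other 11, and Lcn2 5.17, against 6.37 to 9.20. The lysozymes Lyz1 and Lyz2 measured 7.56 and 6.54, against 11.26 to 13.10 and 9.49 to 11.56, and the chemokine receptor Ccr2 7.46, against 9.53 to 11.22. The progenitor genes Sox4 and Procr measured 3.51 and 4.28, against 9.97 to 11.70 and 7.65 to 10.16. Of the other lists' genes in the group comparisons, Lyz1 (-1.33, adjusted p = 0.0304) and the endothelial and megakaryocyte gene Vwf (-2.23, limma adjusted p = 0.0485) were lower in INV16 than in the ACD mutant; with the spike-in side as a block they differed by -0.74 (adjusted p = 0.464) and -0.54 (limma adjusted p = 0.7096). The chemokine receptor Cxcr2 (0.88, adjusted p = 0.0375) and the stem cell marker Slamf1 (1.20, limma adjusted p = 0.0378) were higher in ACD mutant cells than in the vector control, and neither call held with that block (0.82, adjusted p = 0.117, and 0.72, limma adjusted p = 0.153). INV16 was lower than MIB control in the neutrophil gene S100a8 (-3.08, adjusted p = 0.0144), the cytotoxic cell gene Nkg7 (-0.73, adjusted p = 0.0150) and the stromal receptor Pdgfrb (-1.10, limma adjusted p = 0.0132), and higher in the progenitor genes Procr (1.48, adjusted p = 0.0252) and Esam (0.95, limma adjusted p = 0.0477). With the block these 5 passed; within the 1 spike-in side that held both groups, S100a8 passed (adjusted p = 0.0328) and Nkg7 (0.140), Pdgfrb (0.107), Procr (0.102) and Esam (limma adjusted p = 0.114) did not. No erythroid or B cell gene was called in any of the 3 comparisons. On INV16 replicate 4 the farthest genes of the T and NK cell list were Nkg7 at 6.55, against 9.90 to 10.90 on the other 11 arrays, Zap70 at 8.80, Cd3e at 7.68 and Il7r at 5.06, and those of stroma and endothelium were Pecam1 at 5.33, Pdgfrb at 5.87, Lepr at 5.54 and Kdr at 7.25. Completing the other lists, Cd68 lay at 6.78, Cxcr2 at 7.20, Id2 at 11.42, Id1 at 6.56, Pax5 at 6.51 and Ebf1 at 4.90.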
